A study of Mus musculus with 6 samples.

Results

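The regions described here were promoter regions in which Lsd1 peaks were called in wild-type cells in myogenic medium and in LSD1-overexpressing cells in adipogenic medium, but not in wild-type cells in adipogenic medium. The peaks of the 3 libraries were pooled, and intervals that shared at least 1 bp were merged into 56729 regions, of which 13364 had their centre within 2000 bp of an annotated transcription start site (TSS). Of these promoter regions, 2506 (18.8%) held the pattern and are called members below. They belonged to 2453 genes, each being the gene of the nearest TSS, which is 9.37% of the 26180 annotated genes and 21.6% of the 11335 genes with any promoter region in the merged set. The peak calls themselves chose the members, so peak values are given as a description and were not tested.

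The cells were C2C12, a mouse myoblast line that forms myotubes in low serum and takes on features of brown adipocytes under an adipogenic cocktail. Lsd1 was precipitated on day 1 of differentiation from wild-type cells in 2% horse serum, from wild-type cells in adipogenic medium, and from LSD1(OE) cells in adipogenic medium. Adipogenic medium held rosiglitazone, T3, insulin, dexamethasone, indomethacin and isobutylmethylxanthine in 10% FCS, so the media differed in serum as well as in these agents. LSD1(OE) cells were 1 stable line, selected with G418 after lentiviral infection, in which doxycycline drove Flag-tagged LSD1. No source used here lists doxycycline for the wild-type cells, so the LSD1 level, the line and the drug cannot be told apart. The comparison asks at which promoters Lsd1 was called again in adipogenic medium when LSD1 was overexpressed.

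Lsd1 (Kdm1a) removes methyl groups from mono- and dimethylated lysines of histone H3. It has no sequence preference of its own known to place it at promoters, and it is brought to chromatin by partners such as the CoREST complex and by transcription factors. In myoblasts, the bHLH factors Myod1 and Myog bind E-boxes, hexamers of the form CANNTG, together with E-proteins such as Tcf12. Many promoters are CpG islands, stretches in which CpG dinucleotides were not lost, and these often carry GC boxes bound by Sp and Klf factors.

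The 250 bases upstream of the TSS are shown for Ankrd28, the member whose lower score of the libraries was the highest, and for the 3 members among the myogenic regulators, since they span a CpG-rich promoter without an E-box and a CpG-poor muscle promoter with E-boxes. Bases are from RefSeq's mm10 assembly, 5′ to 3′ on the strand of the gene, and end at the base before the TSS. Capitals mark every CANNTG.

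Ankrd28 (chr14:31830416-31830665, minus strand): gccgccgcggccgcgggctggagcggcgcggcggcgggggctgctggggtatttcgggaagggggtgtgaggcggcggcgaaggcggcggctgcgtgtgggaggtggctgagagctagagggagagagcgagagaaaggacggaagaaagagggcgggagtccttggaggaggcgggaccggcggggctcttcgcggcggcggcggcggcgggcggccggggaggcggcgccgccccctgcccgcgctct
Vgll2 (chr10:52022252-52022501, plus strand): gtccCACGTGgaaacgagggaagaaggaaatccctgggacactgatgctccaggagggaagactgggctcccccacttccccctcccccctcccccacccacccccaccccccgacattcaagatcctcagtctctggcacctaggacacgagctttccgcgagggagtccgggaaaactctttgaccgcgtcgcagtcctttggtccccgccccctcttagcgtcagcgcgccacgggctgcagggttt
Tcf12 (chr9:72111202-72111451, minus strand): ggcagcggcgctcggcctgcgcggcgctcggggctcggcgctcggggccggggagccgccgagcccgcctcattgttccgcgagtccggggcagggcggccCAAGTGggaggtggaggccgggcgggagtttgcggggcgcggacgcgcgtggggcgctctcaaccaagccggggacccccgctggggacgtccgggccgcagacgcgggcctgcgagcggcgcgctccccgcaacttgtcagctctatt
Myog (chr1:134289754-134290003, plus strand): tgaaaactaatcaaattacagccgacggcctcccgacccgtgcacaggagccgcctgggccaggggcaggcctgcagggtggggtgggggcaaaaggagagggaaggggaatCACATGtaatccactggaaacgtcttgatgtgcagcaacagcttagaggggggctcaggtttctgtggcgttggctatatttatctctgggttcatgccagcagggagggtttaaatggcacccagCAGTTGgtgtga

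Ankrd28 held 37 CpG dinucleotides in this stretch and no E-box. Tcf12 held 39 CpGs and 1 E-box, CAAGTG, starting 149 bases before the TSS. Vgll2 held 15 CpGs and 1 E-box, CACGTG, at 246 bases, which lay outside its merged region, since 154 of the 250 bases were inside. Myog held 7 CpGs and the E-boxes CACATG and CAGTTG, at 138 and 12 bases before the TSS. The first 8 bases of the Myog stretch also belong to an exon of the noncoding RNA gene Myoparr.

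Each condition had 1 ChIP and 1 input library, so no value has a replicate and differences are between single libraries. The peak lists held 43426 (myogenic), 18893 (wild-type adipogenic) and 33533 (LSD1(OE)) peaks from 46155625, 63915769 and 55193310 filtered ChIP tags. The wild-type adipogenic library was the deepest and gave the fewest peaks. The peak caller multiplied ChIP tags by 1.90, 1.28 and 1.82 to reach the size of the input, and the fewest tags in a peak were 27, 35 and 30. Values exist only where a peak was called, so the wild-type adipogenic signal at a member is below the calling limit but otherwise unknown here.

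Most members were single, moderate peaks in both libraries. Exactly 1 myogenic and 1 LSD1(OE) peak made up 2391 members (95.4%), and the median member spanned 1324 bp. Myogenic peaks held a median of 75.5 tags (27 to 568) and LSD1(OE) peaks 64 tags (30 to 683). The score, which is 10 times −log10 of the peak caller's p-value, had a median of 214 in myogenic medium (50.1 to 1306) and 125 in LSD1(OE) cells (50.1 to 901). Promoter regions called in all 3 libraries had medians of 511 and 300 in the same libraries, and 154 in wild-type adipogenic cells. The summits of both libraries lay within 200 bp of each other in 1465 members (58.5%), with a median gap of 153 bp.

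**Figure D1:**
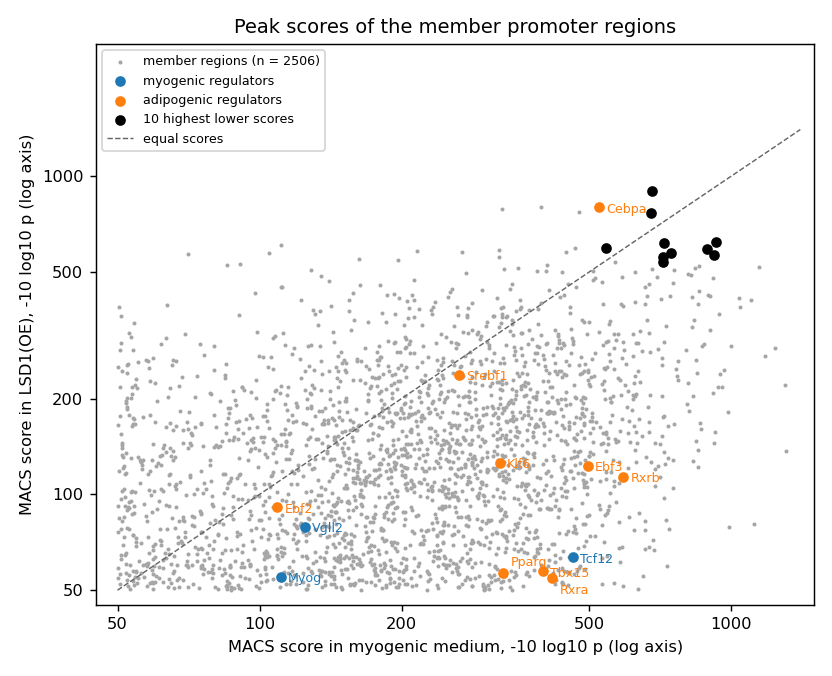
Scores of the 2506 members in myogenic medium (x axis) and in LSD1(OE) cells (y axis), −10 log10 of the peak caller's p-value on log axes. Grey points are members, coloured points are members among the myogenic and adipogenic regulators, black points are the 10 members with the highest lower score, and the dashed line marks equal scores. Myog lies at 111 and 55.2, Cebpa at 523 and 797.

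Weak peaks were frequent among the members. The LSD1(OE) score was under 100 in 944 members (37.7%) and the myogenic score in 462 (18.4%), while both reached 100 in 1345 (53.7%). Among the 7845 promoter regions with a myogenic and an LSD1(OE) peak, 31.9% lacked a wild-type adipogenic peak and so were members. That share was 66.7% among the 1569 regions with the lowest myogenic scores (50.04 to 183) and 3.82% among the 1569 with the highest (751 to 3169). By LSD1(OE) score it was 61.6% among the 1569 lowest and 2.87% among the 1569 highest. Membership thus went together with low scores in the libraries where peaks were called, and how far the calling limit set the pattern was not tested.

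Members were ranked by the lower of their scores, and the first was Ankrd28, a regulatory subunit of protein phosphatase 6. Its peak held 167 myogenic tags (95% Poisson interval 143 to 194) and 211 LSD1(OE) tags (183 to 241), with scores of 678 and 901. Such intervals cover counting error only. The nearest wild-type adipogenic peak was 137363 bp away. Zcchc2 followed with 166 and 234 tags, and Tpcn1, an endolysosomal cation channel gene whose region also covers the Iqcd TSS, had 222 and 205 tags. Homer1, which encodes a postsynaptic scaffold protein, had 197 myogenic and 175 LSD1(OE) tags. Tiam2, an activator of Rac, had 184 and 166 tags, and Cdc42ep4, an effector of Cdc42, had 173 and 154. Zscan29, Zfp341, Sltm and Lrig2 completed the first 10, with 131 to 172 myogenic and 147 to 179 LSD1(OE) tags. Of these 10, Ankrd28, Zcchc2 and Sltm had the higher score in LSD1(OE) cells, and the other 7 in myogenic medium, as did 73.1% of all members.

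Tag densities, in tags per kb of peak per 1000000 filtered tags, compared the libraries after depth and peak length. The median member had 1.38 in myogenic medium and 1.15 in LSD1(OE) cells. The median log2 ratio of LSD1(OE) over myogenic density was -0.25 (range -1.08 to 0.68), and the myogenic density was the higher one in 2047 members (81.7%). Promoter regions of all 3 libraries had a median of -0.30, so a lower LSD1(OE) density was not particular to members.

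Members with both scores at 100 or more were ranked by this ratio. The highest were Gramd1b, a sterol transfer protein of the endoplasmic reticulum, with 49 myogenic and 161 LSD1(OE) tags and a log2 ratio of 0.51, and Pecr, a peroxisomal enoyl-CoA reductase, with 60 and 104 tags and 0.50. Mcam, a cell adhesion molecule, had 52 and 126 tags (0.49), Cd82, a tetraspanin, 47 and 160 (0.42), and Hyou1, a chaperone of the endoplasmic reticulum, 53 and 123 (0.39). Each density was taken over the library's own peaks, so a ratio can compare partly different stretches. At Cd82 the peaks were 841 bp (myogenic) and 1784 bp (LSD1(OE)) long. Their summits lay 1208 bp apart, beside 80 to 156 bp at Gramd1b, Pecr, Mcam and Hyou1. Cd82 was no longer a member when a larger overlap of the peaks was required. Gramd1b, Mcam and Hyou1 all lie on chromosome 9, which held 181 of the 2506 members. The median log2 ratio of members there was -0.16, beside -0.25 over all chromosomes. In regions of all 3 libraries it was -0.22 there, beside -0.30, so the higher ratio on this chromosome was not particular to members. The lowest ratio was at Prmt2, an arginine methyltransferase, with 120 myogenic and 61 LSD1(OE) tags and -1.06. Med7, a Mediator subunit, had 97 and 72 tags (-1.04), and Selenof, a selenoprotein, 148 and 61 (-0.95). Nsmf had 118 and 64 tags (-0.94). Brd2, a reader of acetylated histones, had the highest myogenic score of any member, 1306, from 278 tags. Its score in LSD1(OE) cells was 137 from 128 tags (-0.92), with summits 1226 bp apart. The Brd2 region also covered the H2-DMa TSS, and a wild-type adipogenic peak lay 448 bp away. Brd2 was no longer a member when adipogenic peaks within 1000 bp were excluded.

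Members lay close to their TSS. The centre was within 500 bp of it in 2050 members (81.8%), and 2200 (87.8%) covered it. The myogenic summit was within 500 bp of the TSS in 79.7% of members, in 79.2% of promoter regions of all 3 libraries and in 60.6% of those called in myogenic medium only. TSSs of different genes on both strands lay inside 345 members (13.8%), compared with 14.1% and 8.02% in those classes. The nearest gene was protein-coding for 2318 members (92.5%).

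In base composition, members were closer to the regions of all 3 libraries than to the myogenic-only ones. In the 300 bp centred on the myogenic summit, the median CpG ratio, observed over expected from the C and G content, was 0.775 in members, 0.792 in regions of all 3 libraries and 0.565 in myogenic-only regions. The ratio was over 0.6 in 1761 members, or 70.3% (95% Wilson interval 68.5 to 72.0%), in 76.6% of regions of all 3 libraries (75.4 to 77.7%) and in 47.2% of myogenic-only regions (45.5 to 48.9%). It was under 0.4 in 411 members (16.4%). These CpG-poor members had median scores of 129 in myogenic medium and 107 in LSD1(OE) cells, compared with 247 and 128 at the CpG-rich members. Wilson intervals cover counting error only, and neighbouring promoters are not independent.

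**Figure D2:**
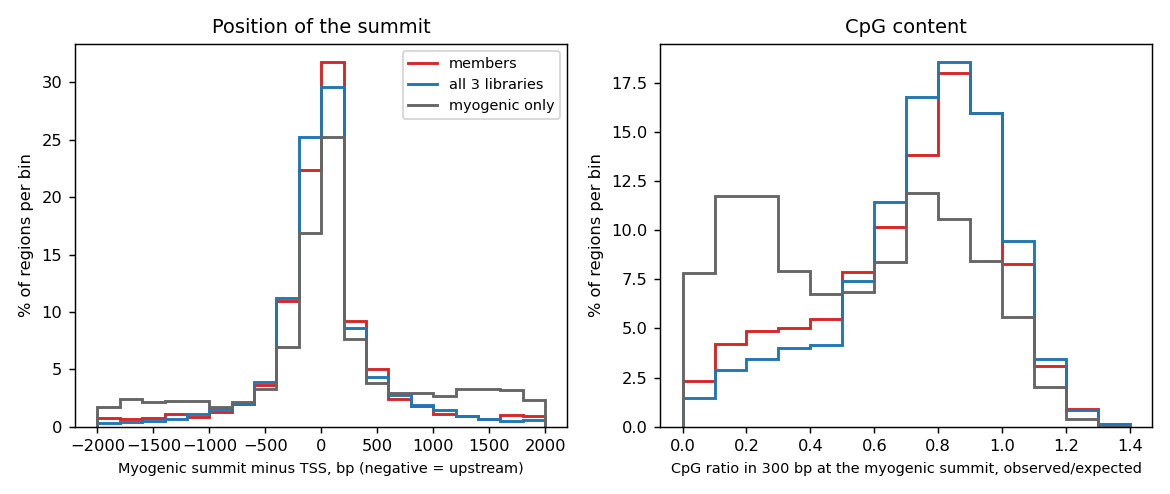
Left, distance of the myogenic summit from the TSS in bp, in bins of 200 bp. Right, CpG ratio in the 300 bp around the myogenic summit, observed over expected, in bins of 0.1. Lines give the percentage of regions per bin for the 2506 members (red), the 5339 promoter regions of all 3 libraries (blue) and the 3405 called in myogenic medium only (grey). The medians of the right panel are 0.775, 0.792 and 0.565.

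Motifs were searched as exact letters on both strands of the same 300 bp, and a match is not a binding site. Shares over all promoter regions include regions without a myogenic peak, read around another summit. The LSD1(OE) summit served for 1158 regions called in LSD1(OE) only and 128 called in both adipogenic libraries only. For 174 regions called in wild-type adipogenic cells only it was their own summit. Median CpG ratios of these were 0.316, 0.384 and 0.286. CAGCTG, the E-box form bound by Myod1 and Myog, was found in 458 members (18.3%), in 19.7% of regions of all 3 libraries, in 19.1% of myogenic-only regions and in 19.5% of all 13364 promoter regions. Any CANNTG, which includes CAGCTG, was found in 63.2% of members and 66.9% of all promoter regions. CAGCTG thus stood near its background in members. It varied with base composition within them, from 28.5% of CpG-poor members to 15.1% of CpG-rich ones. The GC box GGGCGG was found in 58.9% of members, 65.2% of regions of all 3 libraries and 37.9% of myogenic-only regions, beside 52.0% of all promoter regions. The Ets site CCGGAAG was found in 13.9% of members and 11.1% of all promoter regions, and the NRF1 site in 7.82% and 5.83%. The Runx site TGTGGT was found in 12.3% and 14.1%, and the MEF2 site in 0.958% (Wilson interval 0.644 to 1.42%) and 1.31%. At CpG-rich regions, the Runx site was in 8.8% of members, 9.12% of regions of all 3 libraries and 10.6% of myogenic-only regions. The MEF2 site was there in 0.511%, 0.587% and 0.809%. The GC box, which itself holds a CpG, was there in 70.9%, 73.7% and 63.4%, a smaller gap to myogenic-only regions than without regard to CpG ratio. Among CpG-rich regions alone, the Ets site was in 17.5% of members, 12.5% of regions of all 3 libraries and 21.3% of myogenic-only regions.

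Myogenic regulators among the members were Tcf12, Vgll2 and Myog. They were 3 of 27 listed genes, or 11.1% (Wilson interval 3.85 to 28.1%), beside 9.37% of all genes. Of the 21 with any promoter region these were 14.3%, beside 21.6% of all such genes. Of the listed genes, 12 had a promoter region of all 3 libraries and 5 had a myogenic-only one. Tcf12, an E-protein partner of Myod1, had 121 myogenic tags (density 1.64) and 42 LSD1(OE) tags (0.992). Vgll2, a Tead cofactor, had 45 (1.30) and 42 (1.09). Myog, the bHLH factor of terminal differentiation, had 64 (1.35) and 34 (0.995), and its region also covered the Myoparr TSS. The LSD1(OE) density was the lower one at each of the 3, as at 81.7% of all members. The LSD1(OE) scores were 79.2 at Vgll2, 63.5 at Tcf12 and 55.2 at Myog, the last close to the lowest score in the list, 50. The Myog summits were 908 bp apart and its nearest wild-type adipogenic peak was 2852 bp away. Myog was no longer a member when the peaks had to overlap by at least 50% of the shorter one.

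Few genes of the contractile apparatus were members, and their share depended on the setting. Of 60 sarcomere and muscle structure genes, 3 (5%, interval 1.72 to 13.7%, which includes the 9.37% of all genes) had a member, while 21 had a myogenic-only promoter region and 10 one of all 3 libraries. Of the 36 with any promoter region, those with a member were 8.33%, beside 21.6% of all such genes. At a score of at least 100, 5 of the 60 (8.33%) had a member, beside 9.2% of all genes. The share was 10% beside 11% with a window of 5000 bp, and 3.33% beside 8.69% with a window of 1000 bp. Des, the muscle intermediate filament gene, had 2 members, with 85 and 62 tags near the TSS and 69 and 61 tags at 1669 bp downstream. Mylpf, a fast myosin light chain gene, had 91 and 60 tags, in a region that also covered the Tbc1d10b TSS. Tpm1, a tropomyosin gene, had 38 and 48 tags in a region centred at -1689 bp from the TSS, 607 bp from a wild-type adipogenic peak. Of 31 genes of fusion, membrane repair and the dystrophin complex, 3 (9.68%) had a member, near the 9.37% of all genes. Of the 26 with any promoter region these were 11.5%, beside 21.6% of all such genes. At a score of at least 100, 6 (19.4%) had a member, beside 9.2% of all genes. The 3 without that limit were Sspn (sarcospan) with 107 and 120 tags, Sgcd (delta-sarcoglycan) with 84 and 55, and Capn3 (a muscle calpain) with 68 and 44. At Sspn a wild-type adipogenic peak lay 56 bp outside the region.

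**Figure D3:**
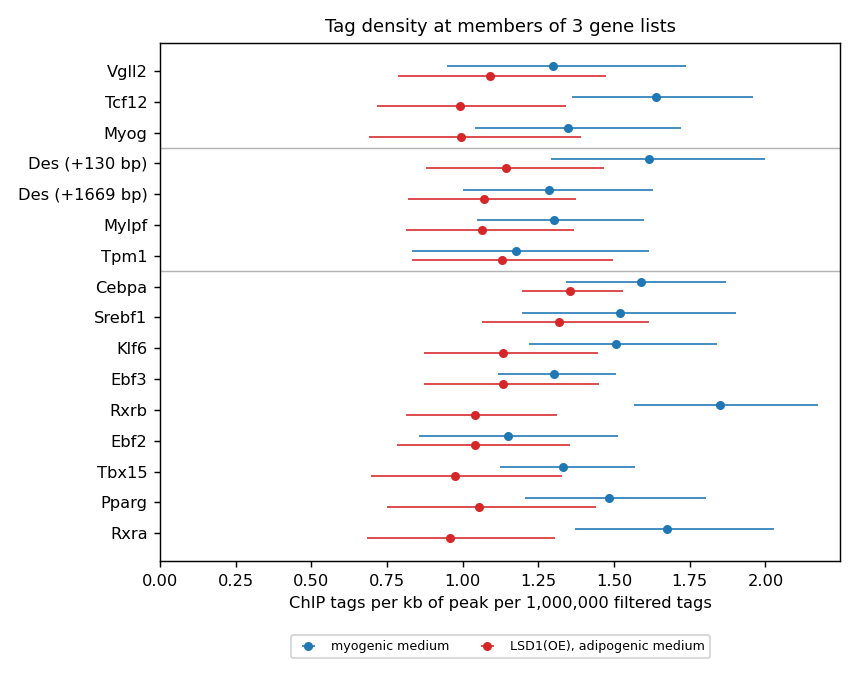
ChIP tags per kb of peak per 1000000 filtered tags in myogenic medium (blue) and in LSD1(OE) cells (red), at members among the myogenic regulators (top), sarcomere and muscle structure genes (middle) and adipogenic regulators (bottom). Points are single libraries, bars 95% Poisson intervals of the tag count, and the 2 Des regions are named by the distance of their centre from the TSS. The intervals do not overlap at Tcf12, Rxrb and Rxra, and Rxrb lies at 1.85 and 1.04.

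Adipogenic regulators with a member numbered 9 of 33 genes, or 27.3% (15.1 to 44.2%), beside 9.37% of all genes, and the interval overlaps the one of the myogenic regulators. Of the 26 with any promoter region these were 34.6%, beside 21.6% of all such genes. Cebpa, a C/EBP factor of adipocyte differentiation, had 145 myogenic and 262 LSD1(OE) tags, densities of 1.59 and 1.36, and scores of 523 and 797. Pparg, the nuclear receptor bound by rosiglitazone, had 100 and 39 tags, and its LSD1(OE) score was 56.4. Its RXR partners Rxra and Rxrb had 105 and 40, and 148 and 71 tags. Srebf1, a regulator of lipid synthesis, had 76 and 92, and Klf6 had 95 and 64. Ebf2 and Ebf3, of the early B-cell factor family, had 51 and 55, and 177 and 63 tags, and Tbx15, a T-box factor, had 143 and 40. The LSD1(OE) density was the lower one at all 9, as at 81.7% of all members. At 4 of them (Pparg, Rxra, Tbx15 and Ebf2) the LSD1(OE) score was under 100, as at 37.7% of all members. Of 30 adipocyte and brown fat genes, 3 (10%) had a member, near the 9.37% of all genes. Of those with any promoter region these were 17.6%, beside 21.6% of all such genes. They were the lipid synthesis gene Gpam (80 and 85 tags), the lipoprotein lipase gene Lpl (75 and 120) and the hormone-sensitive lipase gene Lipe (42 and 44). Lpl had the higher density in LSD1(OE) cells, 1.28 beside 1.15.

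Of signalling genes, 9 of 43 (20.9%) TGF-beta and BMP genes, 6 of 28 (21.4%) Notch genes, 5 of 50 (10%) Wnt genes, 3 of 22 (13.6%) Hippo genes and 2 of 31 (6.45%) IGF and insulin genes had a member, beside 9.37% of all genes. Of those with any promoter region, these were 23.7%, 24%, 12.8%, 15.8% and 9.52%, beside 21.6% of all such genes, so the TGF-beta and Notch shares lay near that background. The Hippo and IGF counts depended on the calling limit. They were 7 of 22 (31.8%) and 8 of 31 (25.8%) at a score of at least 100, and 7 of 22 and 7 of 31 (22.6%) at an FDR of at most 0.1%. The shares of all genes under these settings were 9.2% and 8.7%. Ligands among them were Tgfb1 (144 myogenic and 113 LSD1(OE) tags), Tgfb3 (192 and 128), the Notch ligand Dll1 (128 and 70), Igf1 (81 and 85), Wnt4 (58 and 63) and Wnt10a (54 and 81). The BMP antagonist Grem1 had 99 and 114 tags. Receptors were Bmpr2 (142 and 98), Acvr1b (71 and 71) and Bmpr1b (31 and 56). Smad2 (165 and 94) and Smad9 (62 and 34) transmit these signals to the nucleus, and Ski, which represses Smad targets, had 28 and 104 tags and a log2 density ratio of 0.43, with a myogenic score of 50.6, next to the calling limit. On the Notch side, the coactivators Maml1 (65 and 150), Maml2 (46 and 52) and Maml3 (95 and 34) were members together with the effector Heyl, which had 2 members. Tead1, the DNA-binding partner of Yap1, had 85 and 129 tags. All 9 TGF-beta and BMP members had a CpG ratio over 0.6, as did 70.3% of all members.

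**Figure D4:**
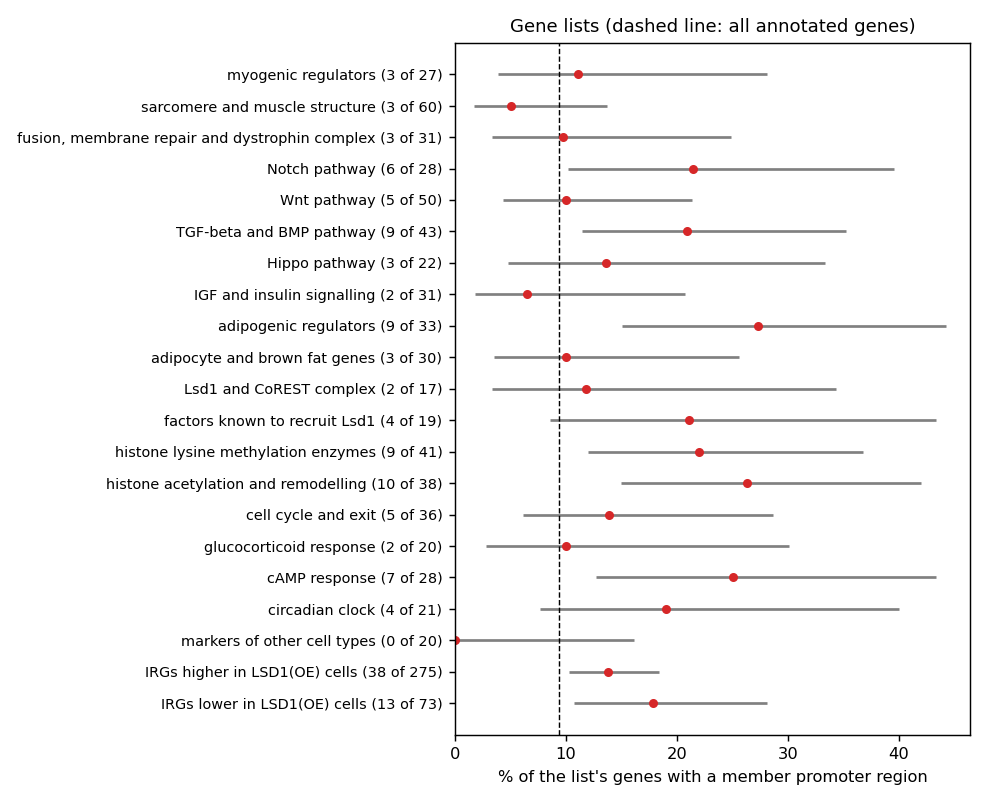
Percentage of the genes in each of 21 lists that had a member promoter region, with 95% Wilson intervals. Counts stand beside the list names, and the dashed line marks 9.37%, the share of all annotated genes. The adipogenic regulators lie at 27.3% and the sarcomere genes at 5%.

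Of 38 acetylation and remodelling genes, 10 (26.3%) had a member, and of 41 histone lysine methylation genes, 9 (22%), beside 9.37% of all genes. Of those with any promoter region, these were 29.4% and 25.7%, beside 21.6% of all such genes. The LSD1(OE) density was the higher one at 1 of the 10 acetylation and remodelling members and at 2 of the 9 methylation members. Over all members, the myogenic density was the higher one at 81.7%. Acetylation and remodelling members included the acetyltransferase genes Crebbp (52 and 70 tags), Kat2a (59 and 66), Kat2b (91 and 61) and Kat6a (109 and 37), and the deacetylase genes Hdac7 (143 and 87) and Sirt1 (129 and 66). The remodelling subunit Smarcd1 had 177 and 94 tags. A wild-type adipogenic peak lay 114 bp from the region at Hdac7 and 448 bp at Brd2, also of this list. Without adipogenic peaks within 1000 bp, 8 of the 38 genes (21.1%) had a member, beside 8.73% of all genes. Although LSD1(OE) tags were more numerous at Crebbp, its log2 density ratio was -0.10, and that of Kat2a was 0.04. Among the methylation genes, Suz12, a core subunit of the Polycomb complex that methylates H3 lysine 27, had 125 and 213 tags, scores of 326 and 789 and a log2 ratio of 0.24. Kdm6b, which removes the same mark, had 43 and 103 tags, and Setd2 had 76 and 97 with a log2 ratio of -0.29. Of 17 genes of Lsd1 and its CoREST complex, 2 (11.8%) had a member, Hdac1 (91 and 47) and Zfp217 (89 and 74). Of 19 genes for factors known to recruit Lsd1, 4 (21.1%) had one, Mta1 (50 and 82), Zeb1 (48 and 63), Mta3 (85 and 33) and Snai2 (28 and 66). Of those with any promoter region, these were 15.4% and 30.8%, beside 21.6% of all such genes. The myogenic score of Snai2, 51.2, and the LSD1(OE) score of Mta3, 53.3, were close to the lowest score, 50. At Snai2 a wild-type adipogenic peak lay 823 bp away. Without adipogenic peaks within 1000 bp, 3 of the 19 recruiting factors (15.8%) had a member, beside 8.73% of all genes. With equal peak numbers it was 0 of 19, beside 4.51%.

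The adipogenic cocktail raises cAMP and activates the glucocorticoid receptor, and both responses were listed. Of 28 cAMP genes, 7 (25%) had a member, beside 9.37% of all genes, and 4 of the 7 encoded subunits of protein kinase A. These were Prkar1b (137 and 102 tags), Prkar2a (109 and 102), Prkar1a (65 and 98) and Prkacb (75 and 36). Pde4a and Pde8a, phosphodiesterases that degrade cAMP, had 60 and 71, and 65 and 80 tags. Of the cAMP genes with any promoter region 26.9% had a member, beside 21.6% of all such genes. A wild-type adipogenic peak lay 204 bp from the region at Prkar1a, 264 bp at Atf3 and 430 bp at Pde4a. The count was 4 of 28 (14.3%) without adipogenic peaks within 1000 bp and 14 of 28 (50%) at an FDR of at most 0.1%. The shares of all genes under these settings were 8.73% and 8.7%. Of 20 glucocorticoid genes, 2 (10%, and 13.3% of those with any promoter region) had a member, Nfkbia (60 and 153 tags) and Tsc22d3 (155 and 120). Of 36 cell cycle genes, 5 (13.9%, and 18.5% of those with any promoter region) had one, among them the inhibitor Cdkn1a (28 and 44) and cyclin D3, Ccnd3, with 2 members. A wild-type adipogenic peak lay within 2000 bp of 5 of these 6 regions, beside 10.3% of all members, at 775 bp for Cdkn1a and at 688 and 803 bp for Ccnd3. Without adipogenic peaks within 1000 bp, 3 of 36 genes (8.33%) had a member, near the 8.73% of all genes. Of 21 clock genes, 4 (19%, and 20% of those with any promoter region) had a member, with 72 and 94 tags at Arntl. None of 20 marker genes of other cell types had a member (Wilson interval up to 16.1%), and 2 of them had any promoter region.

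The IRGs, genes that changed in opposite directions on LSD1 overexpression and Lsd1 knockdown in the RNA-seq of the same study, were chosen on such cells and are not independent evidence. Of 275 that were higher in LSD1(OE) cells, 38 (13.8%, interval 10.2 to 18.4%) had a member, and of 73 that were lower, 13 (17.8%, 10.7 to 28.1%). Of those with any promoter region, these were 18.9% and 20.3%, beside 21.6% of all such genes. Lyst (108 and 124 tags), Cbl (103 and 90) and Bmpr2 (142 and 98) had the highest lower scores of the first list. Ankle1 (139 and 170), Npc2 (91 and 87) and Prim1 (105 and 63) led the second.

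The share of members varied between chromosomes. It was 7.16% on chromosome 15 (48 of 670 promoter regions, Wilson interval 5.45 to 9.37%) and 12.6% on chromosome 10, and reached 26.3% on chromosome 9 and 28.0% on chromosome 12 (24 to 32.3%). On chromosome 15, 61.0% of promoter regions were called in all 3 libraries, compared with 26.1% on chromosome 9 and 33.2% on chromosome 12. A low share of regions of all 3 libraries did not always come with the highest member shares. Chromosome X had 7.92% such regions and 18.8% members, and chromosome 7 had 24% and 22.8%.

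**Figure D5:**
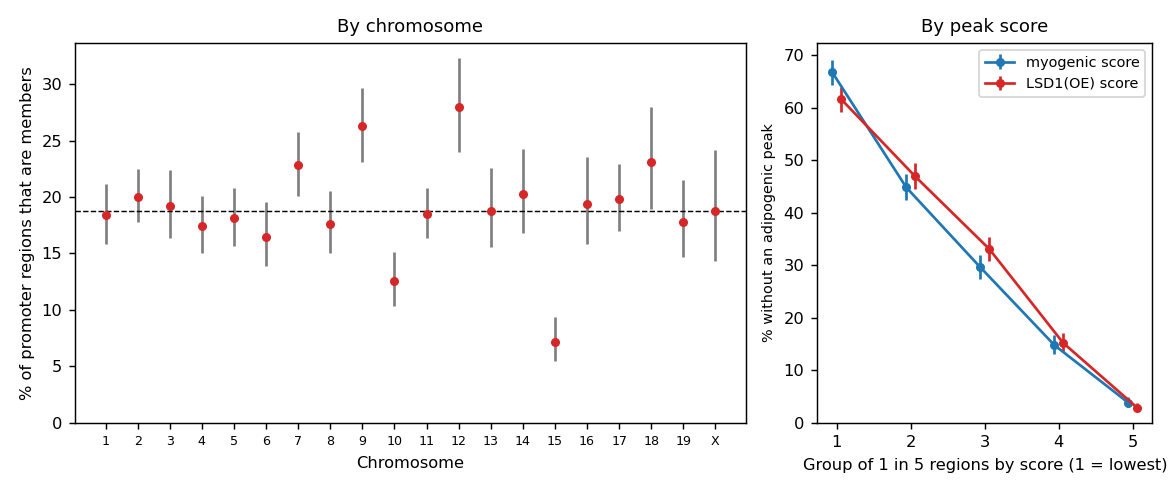
Left, percentage of promoter regions on each chromosome that were members, with 95% Wilson intervals and the share over all chromosomes, 18.8%, as a dashed line. Right, percentage without a wild-type adipogenic peak among the promoter regions called in both other libraries, in 5 groups of 1569 regions ordered by myogenic (blue) or LSD1(OE) (red) score. It falls from 66.7% to 3.82% and from 61.6% to 2.87%.

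The longest members included repeated genes. A cluster of 5S ribosomal RNA genes on chromosome 8, between 123543199 and 123624866, gave 13 members with 58 to 568 myogenic and 75 to 683 LSD1(OE) tags, n-R5s146 and Gm22109 among them. These genes are near-identical copies, so the placement of their reads is uncertain. Cd44, a hyaluronan receptor, had the longest member outside this cluster, with 311 and 335 tags.

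The limits of the definition cut through a continuum. Popdc3, a Popeye-domain gene, was a member with its centre 2000 bp from the TSS, and Jak2, at 2007 bp, was not. At Impdh1 a wild-type adipogenic peak ended 1 bp outside the region, and at Fnip2 14 bp of such a peak overlapped, which put it among the regions of all 3 libraries. The nearest wild-type adipogenic peak was a median of 28096 bp from a member, within 1000 bp at 172 members (6.86%) and within 10000 bp at 679 (27.1%). Another promoter region with a wild-type adipogenic peak belonged to 205 of the member genes (8.36%).

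Which genes were members depended on the score required. With a score of at least 100 in every library there were 2437 members of 2408 genes, and 1358 of the 2453 genes (55.4%) were still among them. Myog, Tcf12, Vgll2, Pparg, Rxra, Tbx15 and Ebf2 were lost, and Cebpa was kept. Other genes entered, so that myogenic regulators still numbered 3 of 27 (11.1%) and adipogenic regulators 8 of 33 (24.2%), beside 9.20% of all genes. With the 18893 strongest peaks of each library there were 1180 genes, of which 1179 were among the 2453. Adipogenic regulators then numbered 5 of 33 (15.2%), beside 4.51% of all genes, and none of the 27 myogenic regulators had a member.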

How the data were processed

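Lsd1 ChIP-seq of 3 conditions (6 libraries, 1 ChIP and 1 input each) was used. Per the file headers, the authors called peaks of each ChIP library against its own input with MACS 1.4.2 (the submitters' processing notes list 1.41) at a p cut-off of 1e-05, from 50 bp reads on mm10, keeping up to 2 duplicate ChIP tags per position. The deposited tag count of a peak is not normalized. The deposited score expresses each peak's p-value as −log10 multiplied by 10, and the authors' run scaled up the smaller library first. The deposited fold enrichment is a ratio over local background and was not compared between libraries. The FDR column, deposited in percent, rests on peaks called with ChIP and input exchanged. The 3 BED lists repeat these positions and scores and were not used.

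Here peaks overlapping by 1 bp were merged, and the nearest of 31647 curated RefSeq TSSs (GRCm38, the assembly of mm10) was taken. Density is tags per kb of peak per 1000000 filtered tags, over all peaks of that library in the region, and the score is that of its strongest peak. Sequence features were read in 300 bp around the myogenic summit, or around the LSD1(OE) or wild-type adipogenic summit in regions without a myogenic peak. Shares have 95% Wilson and tag counts 95% Poisson intervals. With 1 library per condition and members chosen by the peaks, nothing was tested.

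Genes named were the 10 members with the highest lower score, the 5 highest and 5 lowest density ratios where both scores reached 100, the 3 longest, members nearest the limits, and members in 21 gene lists (of each IRG list, the 3 with the highest lower score, from up to 10 that the rule names). Of the list names, 927 matched a current symbol, 19 an older one and 1 none. 1 listed gene is not reported here and was left out of its list. Members and lists were chosen with earlier results of these data known. Alternatives were other score, FDR, scaling, window, overlap and annotation choices. The steps were tested on simulated peaks. Python 3.11.15, NumPy 2.4.6, pandas 2.3.3 and SciPy 1.17.1 were used.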

Additional observations from a re-analysis of the deposited data

How the results depend on the processing

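Of 62 recomputed values, 33 stayed within 1.5 times a count or inside the 95% interval of a share or median, and 29 did not. With equal peak numbers there were 1188 members of 1180 genes. For the setting with ChIP tags not scaled up, peaks were not called anew. Each deposited score was divided by the factor that had multiplied the ChIP tags of its library. Peaks were kept where the result was at least 50, which only approximates a call without scaling. The share of promoter regions that were members, 18.8%, was 23.7% at a score of at least 100, 23.2% at an FDR of at most 0.1%, 12% with equal peak numbers, 16.5% with ChIP tags not scaled up, 20.5% and 16.8% with windows of 1000 and 5000 bp, 20.8% with a TSS inside the region, 17.5% without adipogenic peaks within 1000 bp, 18.0% when peaks overlapped by at least 50% of the shorter, and 17.5% with predicted transcripts. In the same order, leaving out the overlap setting, the median CpG ratio was 0.803, 0.801, 0.816, 0.799, 0.798, 0.704, 0.801, 0.790 and 0.729, and it was 0.746 within 500 bp of the TSS. CAGCTG was found in 19.9% of members with the 5000 bp window. The median log2 density ratio was -0.27 at a score of at least 100, -0.29 with equal peak numbers, -0.27 and -0.23 with the windows, -0.27 with a TSS inside the region and -0.23 with predicted transcripts, and it stayed below 0 in every alternative run. The causes were not tested.

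At an FDR of at most 0.1%, 1096 of the 2453 member genes (44.7%) were kept, and with scores divided by the scaling factors 1454 (59.3%). No paired analysis was possible because each condition has 1 ChIP library. A missing peak is a peak below the calling limit, and the called peaks of the wild-type adipogenic library held 35 tags at the least.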
